A study of Zea mays with 10 samples.

Results

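FEA4, liguleless2 (lg2) and msca1 are 3 maize regulators of shoot and flower development, chosen by gene identifier as 3 of the 39636 gene models in the deposited expression table. FEA4 (GRMZM2G133331) and lg2 (GRMZM2G060216) encode bZIP transcription factors of the TGA class, and msca1 (GRMZM2G442791) encodes a glutaredoxin known as a partner of FEA4. The reference name table pairs FEA4 and lg2 with their identifiers and holds no entry for GRMZM2G442791, whose name comes from the rule that chose the genes. Expression was measured by RNA-seq on ear primordia of 1 mm. Of the 6 pools, 3 came from fea4/fea4 homozygous mutants and 3 from fea4/+ heterozygous plants of the same segregating families, called siblings here. Each pool held more than 10 ears from field-grown plants. The siblings are labelled wild type but carried 1 mutant copy, so both groups held a fea4 allele and no pool of plants without one was measured. The labels describe the reference allele, from chemical mutagenesis of the inbred A619, and other fea4 alleles, and do not say which one the pools carried. Peak lists from tassel primordia carrying YFP-FEA4 also belong to the series and were not used here, because no gene position on their genome build was at hand.

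TGA-class bZIP factors bind DNA as dimers and are best known from Arabidopsis, where members act in defence, in flower development and in the control of meristems. Plant glutaredoxins of the CC type bind TGA factors and can change what these do. In maize, loss of FEA4 enlarges the inflorescence meristem. lg2 is needed to place the ligule and auricle at the boundary of leaf blade and sheath, and also acts in the tassel. msca1 is needed for cell fate in the young anther and also acts on the size of the shoot meristem and on leaf arrangement.

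All 3 transcripts were present in each of the 6 libraries, and none of the 3 passed the test between genotypes. FEA4 and lg2 had nearly equal mean levels in mutant and sibling ears. msca1 had the largest difference of the 3, at 0.629 times the sibling level in the mutants, with an overlap between the groups. In the quasi-likelihood test of edgeR, adjusted by Benjamini-Hochberg over 20618 tested genes, 0 of the 3 passed an adjusted threshold of 0.05, a threshold that 2.48% of all tested genes passed (1.4% higher and 1.08% lower in the mutants). At an unadjusted edgeR threshold of 0.05, 1 of the 3 passed, msca1, against 16.2% of all tested genes. DESeq2, which called 4.44% of all genes it tested, and limma also gave adjusted values above the threshold for each of the 3. In 20.7% of tested genes the mutant and sibling values did not overlap, and this held for 0 of the 3.

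Library totals ran from 8168955 fragments in mutant replicate 2 to 28323324 in mutant replicate 3, so that a level of 1 CPM (counts per library size after TMM scaling) stood for 8.15 to 27.4 fragments. The labels do not say whether pools came from separate families or harvests, so p-values measure the spread between these pools. Since the libraries came from whole ears, a smaller number of expressing cells and less RNA per cell cannot be told apart. Of the markers fixed for young ears, 8 entered the list (kn1, ra1, ra3, BA1, bd1, zfl1, fea2 and TD1), and ra2, zfl2 and tb1 did not. All 8 were detected in sibling ears, and 4 passed as lower in the mutants by edgeR, against 1.08% of all tested genes. bd1 had 55 fragments over the siblings and 0 over the mutants. Markers of green leaf summed to 21.5 to 24.0 CPM in siblings and 33.4 to 52.0 CPM in mutants, with 3 of 10 at 0 and rbcs1 at 1 fragment in all. Nearly all of that sum was me3 and Ppdk1, and Ppdk1 was higher in the mutants (log2 change 1.49, edgeR adjusted p = 0.000893). Anther, pollen and seed markers summed to 4.96 to 9.23 CPM in siblings and 1.84 to 3.62 CPM in mutants. Most of that sum was the seed storage gene glb1, with 446 fragments over all libraries, against 68 for glb2, 21 for ms26 and 0 for ole1. glb1 was lower in the mutants (log2 change −1.61, edgeR adjusted p = 0.0370), and glb2 had 1.11 ± 1.15 (SE, edgeR adjusted p = 0.701). The part of these differences in the values below was not tested.

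Fragments of FEA4 numbered 102, 101 and 142 in replicates 1 to 3 of the siblings, and 156, 44 and 156 in those of the mutants. Scaled to library size, that is 6.25, 5.59 and 6.75 CPM in the siblings and 8.06, 5.40 and 5.71 CPM in the mutants. The highest and the lowest level both came from mutant ears, so the sibling range lay inside the mutant range. The mutant pools spread more widely, with a coefficient of variation of 22.8% against 9.39% in the siblings. The lowest value, in mutant replicate 2, rests on 44 fragments, with a 95% exact Poisson interval of 32.0 to 59.1 fragments. Such intervals cover counting error alone, as fragments were not tagged by molecule and are not independent.

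The fitted log2 change (mutant over sibling) of FEA4 was 0.05 ± 0.29 (SE, n = 3 pools per genotype, edgeR adjusted p = 0.959). Its 95% interval ran from 0.676 to 1.59 times the sibling level. The sign was not fixed: the log2 change was −0.15 without mutant replicate 1 and −0.02 without sibling replicate 2. As the allele carried by the pools is not given, these levels were not used to check the genotype labels.

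Fragments of lg2 numbered 245, 205 and 500 in replicates 1 to 3 of the siblings, and 314, 149 and 527 in those of the mutants. The levels were 15.0, 11.3 and 23.8 CPM in the siblings and 16.2, 18.3 and 19.3 CPM in the mutants. Here the siblings spread more widely: the highest sibling level was 2.09 times the lowest, against 1.19 times among the mutants, and all 3 mutant values lay between sibling replicates 1 and 3. The exact 95% Poisson intervals of sibling replicates 2 and 3, scaled to CPM and covering counting error alone, were 9.85 to 13.0 and 21.7 to 26.0.

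The log2 change of lg2 was 0.10 ± 0.23 (SE, n = 3 per genotype, edgeR adjusted p = 0.887), with a 95% interval of 0.765 to 1.50 times the sibling level. That value rested on single sibling pools. Without sibling replicate 3, where lg2 was highest, it was 0.45 ± 0.22 (SE, edgeR adjusted p = 0.321), and without sibling replicate 2, where lg2 was lowest, it was −0.12 ± 0.22 (SE, edgeR adjusted p = 0.864).

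For msca1 the siblings gave 214, 138 and 292 fragments in replicates 1 to 3, and the mutants 120, 76 and 180. The levels were 13.1, 7.64 and 13.9 CPM in the siblings and 6.20, 9.33 and 6.59 CPM in the mutants. Sibling replicates 1 and 3 lay above every mutant pool. Sibling replicate 2 lay below mutant replicate 2, so the groups overlapped by these 2 pools. Mutant replicate 2, the shallowest library, had the highest msca1 level of the mutants, with 76 fragments and a 95% exact Poisson interval of 59.9 to 95.1.

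**Figure D1:**
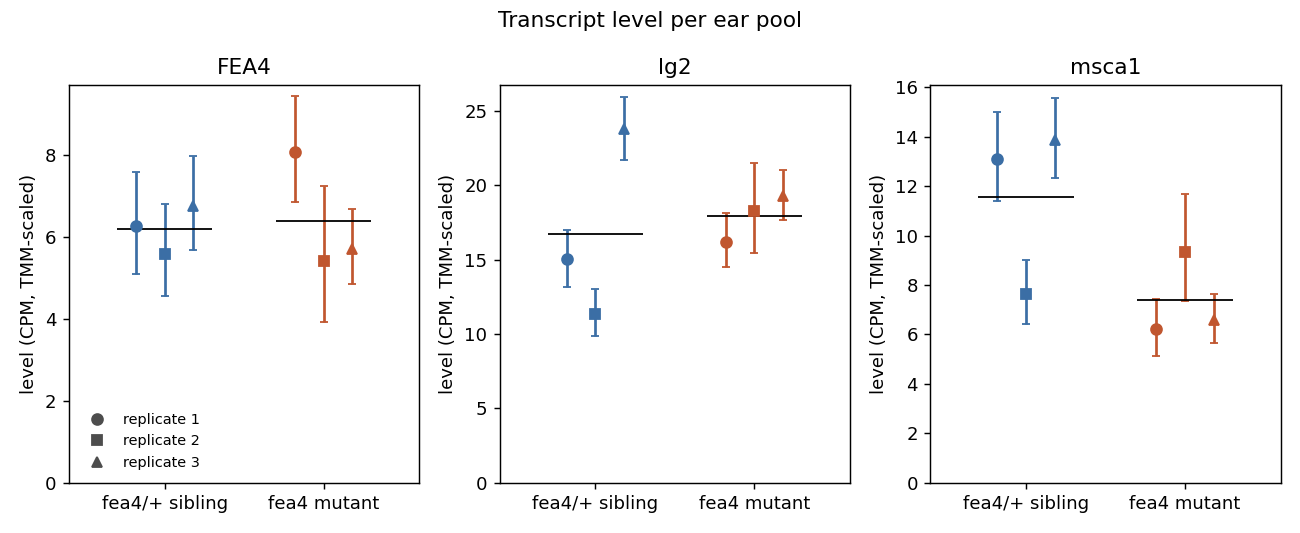
Level of FEA4, lg2 and msca1 in CPM (y axis) in each ear pool, by genotype (x axis), with replicates 1 to 3 as circle, square and triangle, exact 95% Poisson counting intervals as bars and the group mean as a line. The FEA4 groups share 1 range, sibling replicates 2 and 3 of lg2 stand at 11.3 and 23.8 CPM, and sibling replicate 2 and mutant replicate 2 of msca1 cross the other pools of their groups.

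The mean of msca1 was 11.5 CPM ± 3.41 in sibling pools and 7.37 CPM ± 1.71 in mutant pools (SD, n = 3 each). Its log2 change was −0.67 ± 0.28 (SE), with an unadjusted edgeR p of 0.0270 and an adjusted p of 0.231. The unadjusted 95% interval ran from 0.420 to 0.943 times the sibling level. It held rank 2410 of the 20618 tested genes by unadjusted p. The median absolute log2 change over all tested genes was 0.21. In the authors' deposited table msca1 had a log2 change of −0.65, a p-value of 0.0345 and an adjusted p-value of 0.418, and none of the 3 genes was marked as significant.

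The sign of the msca1 difference was negative in each of the 16 other fits, and the adjusted p stayed above 0.05 in each. The log2 change was −0.90 without sibling replicate 2 and −0.85 without mutant replicate 2, the 2 pools by which the groups overlapped (edgeR adjusted p = 0.130 and 0.138). It was smallest, at −0.51, without sibling replicate 3 (edgeR adjusted p = 0.433).

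**Figure D2:**
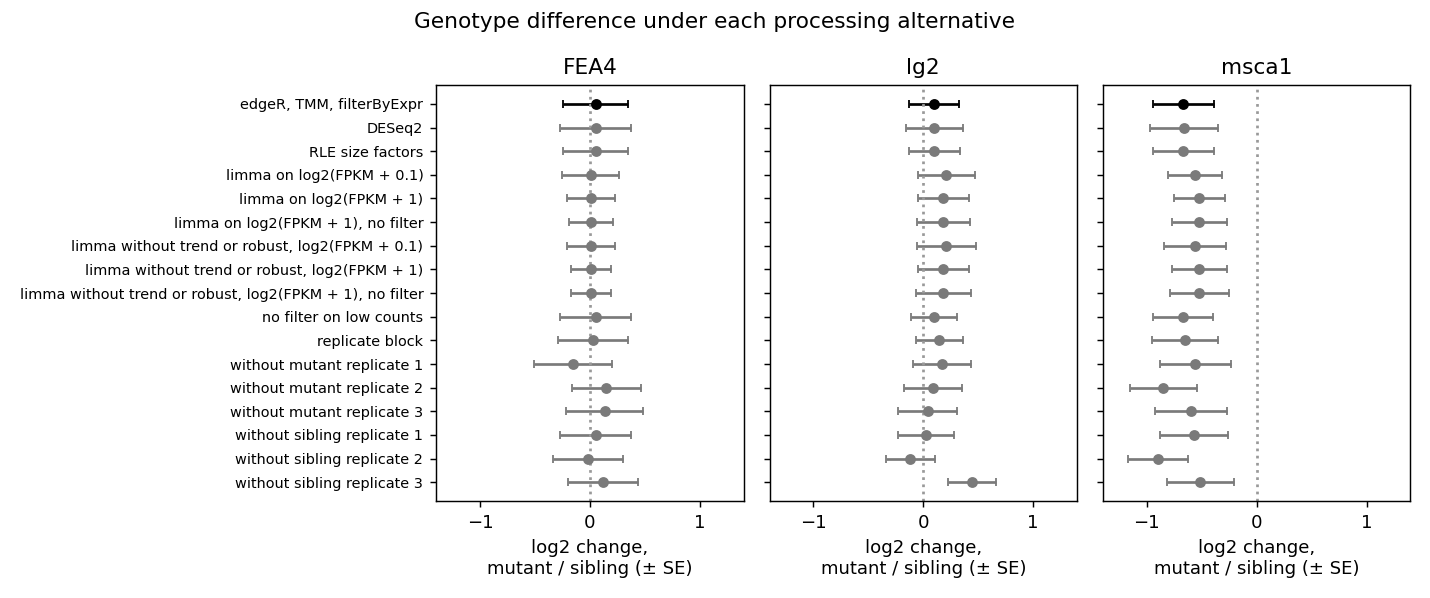
Log2 change, mutant over sibling, with its SE (x axis) for FEA4, lg2 and msca1 in the main fit (black) and under each other setting (grey, y axis). msca1 stays between −0.90 and −0.51, whereas FEA4 and lg2 lie on both sides of 0 when single pools are left out.

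Levels per length were compared in FPKM, fragments normalised by the authors for gene length and library size. msca1 had 13.5 FPKM ± 3.94 in siblings and 8.95 FPKM ± 2.10 in mutants, lg2 had 7.57 ± 2.90 and 8.39 ± 0.706 FPKM, and FEA4 had 4.46 ± 0.239 and 4.61 ± 1.42 FPKM (SD, n = 3 each). Over all 6 pools, 51.8% of tested genes had a lower mean FPKM than msca1, 42.7% than lg2 and 30.2% than FEA4. All 3 thus had levels near or below the middle of the tested genes, whose median was 10.5 FPKM. The lengths implied by fragments, library totals and FPKM differed from library to library. They hold any scale common to a whole library as well as gene length. They were 0.793 to 0.880 kb for msca1, 2.06 to 2.27 kb for lg2 and 1.26 to 1.50 kb for FEA4. For msca1 they were 0.857 to 0.880 kb in siblings and 0.793 to 0.819 kb in mutants. Those of lg2 were 2.21 to 2.27 kb and 2.06 to 2.14 kb, and those of FEA4 overlapped. The implied values of msca1 and lg2 thus shifted the same way and need not mean that lengths changed. FPKM values of 1 gene compared between genotypes carry this shift, whose cause was not tested. A part common to 2 genes cancels in their ratio.

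FEA4 was lower than lg2 in 6 of 6 pools. The mean difference in log2(FPKM + 1) was −0.68 ± 0.40 (SD, n = 6), with a two-sided exact sign-flip permutation p of 0.03125, the smallest that 6 pools allow, and 0.0469 after adjustment over the 3 pairs of genes. FEA4 was also lower than msca1 in 6 of 6 pools, by a mean difference of −1.10 ± 0.53 in log2(FPKM + 1) (SD, n = 6; exact permutation p = 0.03125, adjusted p = 0.0469). lg2 and msca1 did not differ beyond their spread: lg2 was the lower one in 4 of 6 pools, with a mean difference of −0.42 ± 0.45 (SD, n = 6; exact permutation p = 0.125, adjusted p = 0.125).

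lg2 exceeded FEA4 by 1.50, 1.23 and 2.31 times in FPKM in sibling replicates 1 to 3 and by 1.22, 2.38 and 2.25 times in mutant replicates 1 to 3. FEA4 made up 38.4% ± 7.44 of the summed FPKM of both bZIP genes in siblings and 35.1% ± 8.56 in mutants (SD, n = 3 each). The low and the high ratios occurred in both genotypes. The FEA4 minus lg2 difference in log2(FPKM + 1) was −0.60 in siblings and −0.77 in mutants, and an exact two-sided permutation test did not separate them (difference −0.17, p = 0.8, where 3 pools against 3 cannot go below 0.1). The summed FPKM of both genes was 12.0 ± 3.12 in siblings and 13.0 ± 0.863 in mutants (SD, n = 3 each).

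The ratios of msca1 to lg2 and of msca1 to FEA4 were compared between genotypes only after the values had been seen. msca1 stood at 2.26, 1.74 and 1.51 times the FPKM of lg2 in sibling replicates 1 to 3 and at 0.982, 1.33 and 0.889 times in mutant replicates 1 to 3. All 3 sibling ratios lay above all 3 mutant ratios, although neither gene alone gave groups without overlap. The lg2 minus msca1 difference in log2(FPKM + 1) was −0.77 in siblings and −0.07 in mutants, a difference of 0.70. Its p was 0.1, the smallest that the exact two-sided permutation test allows, and 0.3 after adjustment over the 3 pairs, so the difference did not pass. How often the ratios of other gene pairs show no overlap was not measured. The ratio of msca1 to FEA4 was 3.37, 2.14 and 3.48 in siblings and 1.20, 3.16 and 2.00 in mutants, and overlapped (exact permutation p = 0.2, adjusted p = 0.3).

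**Figure D3:**
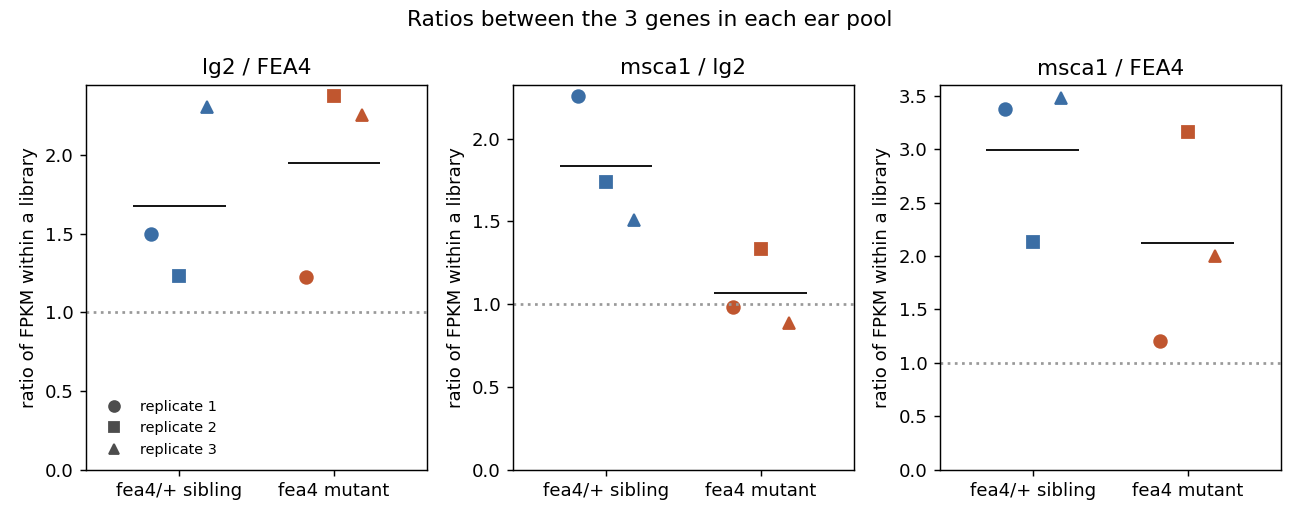
Ratio of FPKM between pairs of the 3 genes within each ear pool (y axis) by genotype (x axis), with replicates 1 to 3 as circle, square and triangle, the group mean as a line and a dotted line at equal FPKM. The msca1 to lg2 ratio runs from 1.51 to 2.26 in siblings and from 0.889 to 1.33 in mutants, and the 2 other ratios overlap between genotypes.

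Across the 6 pools the correlations between the 3 genes were weak. Pearson's r of log2 CPM was 0.20 between FEA4 and lg2, 0.34 between lg2 and msca1 and −0.08 between FEA4 and msca1 (Spearman's rho 0.20, 0.26 and −0.09). These are descriptions over 6 libraries that differ in depth and genotype. Among the 1854 tested genes with a gene name, those most like FEA4 were BZ-1 (r = 0.97), GNAT25 (0.97) and bZIP92 (0.96), of which BZ-1 and bZIP92 are bZIP genes. Most like lg2 were ANAC044 (r = 0.97), the benzoxazinoid gene bx8 (0.94) and DrAp1 (0.93). Most like msca1 were IIG2 (r = 0.99), MTD1 (0.97) and the calmodulin gene cal2 (0.96). Each of these r is the top of a ranking of all named genes over 6 pools and is given with no test. None of the 9 genes passed the test between genotypes (lowest edgeR adjusted p 0.165, for IIG2, with a log2 change of −1.0).

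Other bZIP genes were examined as the family of FEA4 and lg2. The counts of this and the next lists are to be read against the shares of all tested genes: 1.4% higher and 1.08% lower by edgeR, 8.48% and 7.71% at an unadjusted 0.05, and 2.65% and 1.79% by DESeq2. Of 39 named bZIP genes 30 were tested and 4 were listed at 0 in every library. By edgeR 0 were higher and 0 lower, with 1 higher and 2 lower at an unadjusted 0.05 and 0 by DESeq2, and the median log2 change was −0.01, as over all tested genes (−0.01). The named bZIP genes with the highest levels were the ocs-element binding factor gene OBF1 (141 FPKM ± 14.7 in siblings, SD, n = 3), bZip112 (55.4 ± 10.9 FPKM) and GBF1 (39.4 ± 6.15 FPKM). By mean FPKM lg2 ranked 19 and FEA4 ranked 25 of these 30. The largest fitted differences belonged to bZIP7 (0.74 ± 0.71), bZIP108 (0.67 ± 0.86) and OBF3.1 (−0.65 ± 0.22), given as log2 change ± SE, with edgeR adjusted p of 0.669, 0.768 and 0.126. The first 2 of these had sibling levels of 0.528 and 0.280 FPKM. bZip112 was the 1 bZIP gene called under another setting, higher at a log2 change of 0.36 without the filter on low counts (edgeR adjusted p = 0.0441) and at 0.52 without sibling replicate 3 (edgeR adjusted p = 0.0232).

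The redox list held named glutaredoxin, thioredoxin and nucleoredoxin genes. Of the 39636 gene models 2557 carried a name, so unnamed members could not enter it. Binding of its members to bZIP factors was not measured. All 5 were tested, and by edgeR 0 were higher and 0 lower (0 and 1 unadjusted, and 0 by DESeq2). msca1 was the 1 with an unadjusted p under 0.05 and had the lowest log2 change of the 5. The glutaredoxin gene grx1 and the thioredoxin genes trxh2 and trxh1 were far more abundant, at 221, 105 and 87.4 FPKM in siblings, with log2 changes of 0.07 ± 0.10, −0.07 ± 0.10 and −0.11 ± 0.10 (SE). The nucleoredoxin gene nrx1 stood at 1.04 FPKM in siblings, with a log2 change of 0.50 ± 0.42 (SE, edgeR adjusted p = 0.624).

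Genes that set meristem size with FEA4 were mostly not past the threshold. Of 18 tested members 0 were higher, 1 was lower and 17 did not pass (0 higher and 6 lower unadjusted, 2 lower by DESeq2, against 7.71% and 1.79% lower over all tested genes), with a median log2 change of −0.02. gnarley1, a knotted1-like homeobox gene, fell from 12.1 FPKM ± 1.24 to 6.26 FPKM ± 1.39 (SD, n = 3 each; log2 change −0.97 ± 0.20, SE, edgeR adjusted p = 0.0121). It missed the threshold without sibling replicate 2 (edgeR adjusted p = 0.0683). TD1 had a log2 change of −0.61 ± 0.21 (SE), at an edgeR adjusted p of 0.132, and knox8 had −0.60 ± 0.56. kn1, the homeobox gene of the meristem, was the most abundant at 565 FPKM in siblings and had −0.004 ± 0.12, and the auxin-binding protein gene abp1 at 125 FPKM had 0.06 ± 0.10. Without mutant replicate 2 the count was 3 lower, with TD1 among those added, and without sibling replicate 3 it was 2, with fea3 higher at 0.88. By log2 change FEA4 ranked 12 of 18 from the lowest.

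In the list of ligule and leaf boundary genes, which holds lg2, 0 of 9 tested members were higher, 1 was lower and 8 did not pass (0 higher and 4 lower unadjusted, 1 lower by DESeq2, against the same shares). The median log2 change was −0.22. The gene past the threshold was nam1, a NAC gene of organ boundaries, with 45.2 FPKM ± 5.53 in siblings and 30.3 FPKM ± 1.61 in mutants (SD, n = 3 each; log2 change −0.63 ± 0.12, SE, edgeR adjusted p = 0.00924). It missed the threshold without sibling replicate 1 (edgeR adjusted p = 0.0759), mutant replicate 1 (0.0533) or mutant replicate 3 (0.0592). BAD1, a TCP factor gene of the tassel branch angle, had −0.81 ± 0.28, and the knotted1-like genes lg3 and lg4 had −0.34 ± 0.11 and −0.49 ± 0.21 (log2 change ± SE; edgeR adjusted p = 0.134, 0.121 and 0.254). rs2, a MYB gene that keeps knotted1-like genes off in leaves, had −0.22 ± 0.11 (SE, edgeR adjusted p = 0.348). The SBP-box gene lg1, which acts with lg2 in the leaf, had 6 fragments over all 6 libraries and was not tested. lg2 ranked 8 of 9 from the lowest log2 change.

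The last list took genes of the young anther and of leaf arrangement, both processes of msca1. Of 12 tested members 0 were higher, 1 was lower and 11 did not pass (2 higher and 3 lower unadjusted, 2 higher and 1 lower by DESeq2, against 8.48% and 7.71%, and 2.65% and 1.79%, over all tested genes), with a median log2 change of −0.02. ocl4, a homeobox gene of the outer cell layer that also acts in the anther, fell from 38.3 FPKM ± 4.98 to 23.7 FPKM ± 0.866 (SD, n = 3 each; log2 change −0.74 ± 0.10, SE, edgeR adjusted p = 0.000893). The anther genes ms8 and ms23 were listed at 0 in every library, and ms26 and am1 had 21 and 20 fragments in all. Response regulators of cytokinin signalling had differences of both signs: RR4 had 0.66 ± 0.18, RR6 0.45 ± 0.13 and RR7 −0.67 ± 0.27 (log2 change ± SE; edgeR adjusted p = 0.0583, 0.0813 and 0.215). RR4 passed by DESeq2 (adjusted p = 0.0285), and by edgeR without the filter on low counts (adjusted p = 0.0203), with the replicate block (0.0359) and without sibling replicate 3 (0.0485). RR6 passed by DESeq2 (adjusted p = 0.0430). abph1, the response regulator gene of leaf arrangement, had 0.06 ± 0.39, and the auxin carrier gene PIN1a had −0.18 ± 0.11 (SE, edgeR adjusted p = 0.966 and 0.480).

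**Figure D4:**
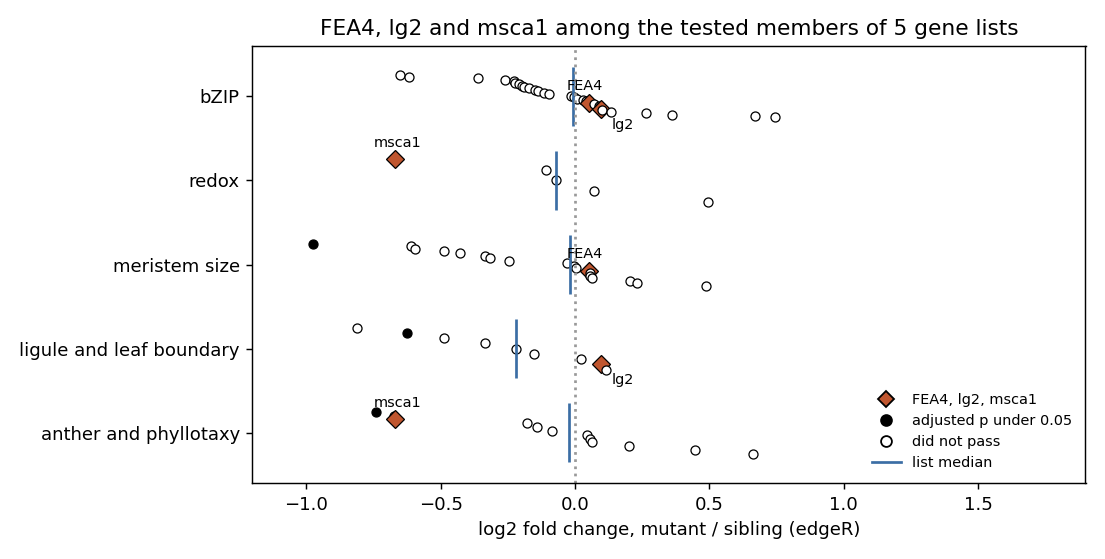
Log2 change, mutant over sibling (x axis), of every tested member of 5 gene lists (y axis), with FEA4, lg2 and msca1 as diamonds, genes past an adjusted p of 0.05 filled black, others open and the list median as a vertical line. FEA4 and lg2 lie near 0 at 0.05 and 0.10. msca1 at −0.67 did not pass, is the lowest of the 5 redox genes and ranks 3 of 12 from the lowest in the anther and phyllotaxy list.

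Mutants and siblings segregated in families, so genes close to FEA4 are inherited with it. In the gene order of the reference name table, the 50 tested genes on each side of FEA4 held 7 of 100 past the edgeR threshold, 4 higher and 3 lower in the mutants. The 50 on each side of lg2 held 4 of 100, and all 13760 tested genes with a place in that table held 2.76%. With 25 genes on each side both counts were 1 of 50, and with 100 on each side they were 9 and 11 of 200. Among tested genes with a place, those next to FEA4 were GRMZM2G379608 and GRMZM2G157113. Their log2 changes were −0.20 ± 0.17 and 0.49 ± 0.22 (SE), at edgeR adjusted p of 0.611 and 0.269. Tested genes without a place could not enter these windows. These windows were chosen after results had been seen, and a part of linkage in them was not tested.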

How the data were processed

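RNA-seq values of 6 ear libraries were used. The expression values are expected counts, deposited by the authors as raw fragments per gene. FPKM values are as deposited, normalised for length and library total. The authors' deposited table also gives a fold change as a ratio, its log2 value, a p-value and an adjusted p-value, and mean normalised counts (unit: signal), all from DESeq per the file headers. Tools listed, without roles, in the submitters' processing notes are TopHat2 2.0.9, DESeq 1.14.0, Cufflinks 2.0.2 and CASAVA. Build, annotation and strand setting: not given in the sources used here. Whether a gene was counted apart from an overlapping antisense transcript is thus not known. All 18 fragment values of the 3 genes were whole numbers, while 11.4% to 14.1% of all values per library were not.

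After rounding, the counts entered edgeR 4.0.16 under R 4.3.3 (quasi-likelihood, robust, TMM, filterByExpr, genotype as the only term, two-sided). Alternatives were RLE factors, no filter, DESeq2 1.42.0, limma 3.58.1 (trend and robust, options chosen after its counts without them had been seen) on log2(FPKM + 1) or log2(FPKM + 0.1) for genes with a mean of at least 1 FPKM or for every gene, the replicate number as a block and leaving out each library. Likeness used log2 CPM with a prior count of 2. Exact permutation tests compared levels. The edgeR test was checked on simulated counts of genes of all levels, each with the spread that edgeR fitted for its level and not its own. It recovered 24.2% of log2 changes of 0.5, 60.3% of those of 1 and 78.8% of those of 2. Changes of such sizes can thus be missed, and these shares need not hold in the real pools. TMM factors were 0.966 to 1.03. Pairs of replicates had a chi-square of 9.48 to 17.07 for each degree of freedom, above sampling noise, and none was treated as a repeat deposit of another. Gene names, and the order of neighbours, were read from RefSeq (Zm-B73-REFERENCE-NAM-5.0); 18255 of 39636 IDs (46.1%) matched 1 entry.

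The genes and lists were chosen with earlier results of these data known. Text names the 3 genes, for each the 3 named genes most like it, and in each list the genes past the threshold, the 3 with the largest absolute log2 fold change and the 3 with the highest FPKM; other list genes were named after their values had been seen. A gene that this rule names in the meristem size list is not reported here. Symbols shared with unrelated genes (trihelix THX, peroxidase PRX, Emp, a catalase, adf1 and a second GT1) were left out of the lists after the names had been seen.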

Additional observations from a re-analysis of the deposited data

How the results depend on the processing

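Across the 16 other fits the adjusted p of FEA4, lg2 and msca1 never fell under 0.05. Without single libraries the log2 change ran from −0.15 to 0.15 for FEA4, −0.12 to 0.45 for lg2 and −0.90 to −0.51 for msca1. With the replicate number as a block it was 0.03, 0.15 and −0.65. Deviations of pools with the same number correlated at 0.0058, −0.011 and −0.026. Such correlations cannot show whether these pools shared a family or harvest. The block gave 719 calls over all genes and 2 in the anther and phyllotaxy list, and bZIP92 went to −0.0098.

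The count over all genes, 512, was 894 by DESeq2, 922 without the filter, 189 and 175 by limma on log2(FPKM + 1) and log2(FPKM + 0.1), 3 by limma without a filter and 156 to 811 without single libraries. limma was first run without its trend and robust options, and these were chosen after seeing its counts and an earlier count for these data; without them it called 12, 1 and 0 genes (log2(FPKM + 1), log2(FPKM + 0.1) and unfiltered; 0 in each list), and the lowest adjusted p of the 3 genes was 0.373. Without the filter, 1 bZIP, 2 meristem size and 2 anther and phyllotaxy genes were called. DESeq2 called 2 meristem size and 3 anther and phyllotaxy genes. Each limma fit with trend and robust called 0 meristem size and 0 ligule and leaf boundary genes, and the unfiltered one 0 anther and phyllotaxy genes. Leaving out single libraries gave 0 to 1 bZIP, 0 to 3 meristem size, 0 to 1 ligule and leaf boundary and 1 to 2 anther and phyllotaxy genes. The cause was not tested.

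The differences of FEA4 from lg2 and from msca1 in log2(FPKM + 1) ran from −0.77 to −0.61 and from −1.28 to −1.0 without single libraries, where the smallest p, 0.0625, cannot pass. The between-genotype difference of FEA4 minus lg2 ran from −0.43 to 0.0035. Among named genes near 0, signs changed without single libraries for BZ-1 (−0.056 to 0.073), DrAp1 (−0.044 to 0.15), GBF1 (−0.21 to 0.0078), GNAT25 (−0.18 to 0.21), abp1 (−0.026 to 0.13), bZIP92 (−0.16 to 0.093), grx1 (−0.010 to 0.14) and kn1 (−0.15 to 0.11). By limma on log2(FPKM + 1), filtered or not, and on log2(FPKM + 0.1), GNAT25 had −0.0088, −0.0088 and −0.014 and kn1 had 0.028 in each. The description of peaks near the 3 genes was not run. The lowest count of the 3 genes was 44 fragments, of FEA4 in mutant replicate 2, where the counting error was 15.1%, against a biological coefficient of variation of 24.4% fitted by edgeR for FEA4.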
